A study of Mus musculus with 7 samples.

Results

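The chromatin described here carried state E5 in leukaemia cells grown with the solvent DMSO and state E6 in the same kind of cells grown with the LSD1 inhibitor GSK-LSD1. Its members were found by comparing the chromatin-state segmentations of both treatments in bins of 200 bp on chromosomes 1 to 19 and X, and by merging adjacent bins that were E6 in GSK-LSD1 and E5 in DMSO. There were 15766 such regions, made of 133627 bins or 26.7 Mb. They took up 51.3% of the 260463 bins that were E5 in DMSO, and the whole of both segmentations held 298759 segments. The E5 bins that stayed E5 formed 17301 runs, 115773 bins or 23.2 Mb, and are the comparison throughout. The regions were chosen by their state labels in both treatments, so the counts, lengths and shares of E6 are a description and were not tested.

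The cells came from mouse bone marrow of BALB/c background and expressed 2 mutant genes from retroviruses: CSF3R, which encodes the G-CSF receptor, and CEBPA, whose product directs progenitors to the granulocyte lineage. The cells of both groups carried both mutant genes; one group was cultured with 4 nM GSK-LSD1 for 48 h, the other with DMSO for 48 h. Chromatin immunoprecipitation for H3K4me1, H3K4me3 and H3K27Ac gave 3 libraries for GSK-LSD1 and 3 for DMSO, with 1 input library. The 3 marks of each treatment were deposited as 1 segmentation, so neither group has a replicate, and nothing here separates the treatment from the difference between these 2 sets of libraries.

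LSD1, the product of Kdm1a, removes methyl groups from lysine 4 of histone H3, and works in complexes with the CoREST proteins that the repressors GFI1 and GFI1B bring to DNA. H3K4me1 is typical of enhancers, H3K4me3 of the starts of active genes, and H3K27Ac of active enhancers and active starts. The marks that define E5 and E6 are unstated (not given in the sources used here), and a state number may cover other marks in one treatment than in the other. E6 covered 54.9 Mb in GSK-LSD1 and 5.73 Mb in DMSO, and 48.7% of the E6 area in GSK-LSD1 had been E5. The depth of the libraries is unknown from state labels, and its part in this difference was not tested.

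The promoter sequences of 6 genes show the kinds of start that the results turn on. They are RefSeq promoters on GRCm38.p6, each running from 250 bases before to 50 bases after the start, 5′ to 3′ on the strand of the gene, and capitals mark CGGAAG or its reverse complement CTTCCG, the core that many ETS factors bind. Gfi1 and Gfi1b encode the repressors that partner LSD1, and their starts became E6. Psma6 encodes a proteasome subunit and Rps18 a ribosomal protein, and the starts shown became E6; another Psma6 start in the table, with no match, was E1 in GSK-LSD1 and E2 in DMSO. Snrpe encodes a core spliceosome protein, and its start stayed E5. The mouse gene Cebpa, of which the cells express a mutant form from a retrovirus, also kept E5 at its start. Psma6, Rps18 and Snrpe were chosen after their values were seen, as starts with 4 matches each.
Gfi1, chr5:107724294-107724593, minus strand: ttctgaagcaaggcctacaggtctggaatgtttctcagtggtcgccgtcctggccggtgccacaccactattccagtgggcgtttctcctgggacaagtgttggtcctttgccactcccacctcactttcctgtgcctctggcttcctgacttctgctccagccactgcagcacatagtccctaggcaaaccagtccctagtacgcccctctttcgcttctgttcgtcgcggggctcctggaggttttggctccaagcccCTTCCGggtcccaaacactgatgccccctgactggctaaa
Gfi1b, chr2:28621933-28622232, minus strand: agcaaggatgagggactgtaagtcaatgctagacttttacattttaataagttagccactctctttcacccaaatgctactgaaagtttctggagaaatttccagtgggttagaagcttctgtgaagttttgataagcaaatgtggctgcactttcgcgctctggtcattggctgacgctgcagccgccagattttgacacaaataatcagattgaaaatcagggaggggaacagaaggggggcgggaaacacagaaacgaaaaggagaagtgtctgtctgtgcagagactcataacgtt
Psma6, chr12:55398575-55398874, plus strand: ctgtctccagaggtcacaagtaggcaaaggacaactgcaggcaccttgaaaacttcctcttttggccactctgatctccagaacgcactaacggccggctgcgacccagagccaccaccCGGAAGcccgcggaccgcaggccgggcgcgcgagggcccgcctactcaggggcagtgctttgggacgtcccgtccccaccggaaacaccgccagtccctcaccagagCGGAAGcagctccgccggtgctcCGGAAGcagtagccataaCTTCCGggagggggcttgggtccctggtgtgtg
Rps18, chr17:33955616-33955915, minus strand: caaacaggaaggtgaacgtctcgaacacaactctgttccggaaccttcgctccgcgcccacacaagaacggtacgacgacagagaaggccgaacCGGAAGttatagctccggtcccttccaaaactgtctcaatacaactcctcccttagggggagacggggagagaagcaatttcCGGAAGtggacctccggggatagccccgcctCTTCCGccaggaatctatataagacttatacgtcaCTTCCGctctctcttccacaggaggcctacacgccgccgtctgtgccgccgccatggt
Snrpe, chr1:133610231-133610530, minus strand: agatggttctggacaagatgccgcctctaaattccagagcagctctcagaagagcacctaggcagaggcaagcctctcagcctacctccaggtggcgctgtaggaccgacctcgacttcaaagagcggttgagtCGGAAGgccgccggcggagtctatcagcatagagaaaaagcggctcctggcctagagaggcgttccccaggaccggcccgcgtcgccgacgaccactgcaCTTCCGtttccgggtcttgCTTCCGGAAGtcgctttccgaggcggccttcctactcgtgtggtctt
Cebpa, chr7:35119043-35119342, plus strand: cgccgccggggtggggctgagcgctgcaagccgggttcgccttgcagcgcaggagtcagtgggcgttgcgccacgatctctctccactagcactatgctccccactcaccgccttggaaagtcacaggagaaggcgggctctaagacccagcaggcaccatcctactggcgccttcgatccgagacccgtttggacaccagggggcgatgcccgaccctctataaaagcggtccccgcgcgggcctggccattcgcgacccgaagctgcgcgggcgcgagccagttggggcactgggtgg

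Nearly every E5 bin either became E6 or stayed E5. Beside the 133627 bins that became E6 and the 115773 that stayed E5, 7530 became E4, 2862 E1, 546 E3 and 125 E2. On the 19 autosomes the share of E5 bins that became E6 lay between 47.9% on chromosome 18 and 58.2% on chromosome 11, with a mean of 51.7 ± 2.82% (SD over 19 chromosomes, which are not replicates). Chromosome X stood below all of them: 21.1% of its E5 bins, 1120 of 5301, became E6 and 73.3% stayed E5. The gap was also measured by surroundings. Where E4 lay on both sides of an E5 segment in DMSO, 7.05% of 440 segments on X became E6 throughout, against 25.5% of 19193 on autosomes. Where E6 lay on at least one side, these were 47.6% of 21 segments on X (28.3 to 67.6) and 65.3% of 4617 on autosomes, which lies within that interval. At protein-coding genes on X, 45 of 364 with E5 near the start had at least 50% of it turned to E6 (12.4%, 95% Wilson interval 9.37 to 16.1), against 6017 of 12208 on autosomes (49.3%, 48.4 to 50.2). Wilson intervals here and below cover counting error only.

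**Figure D1:**
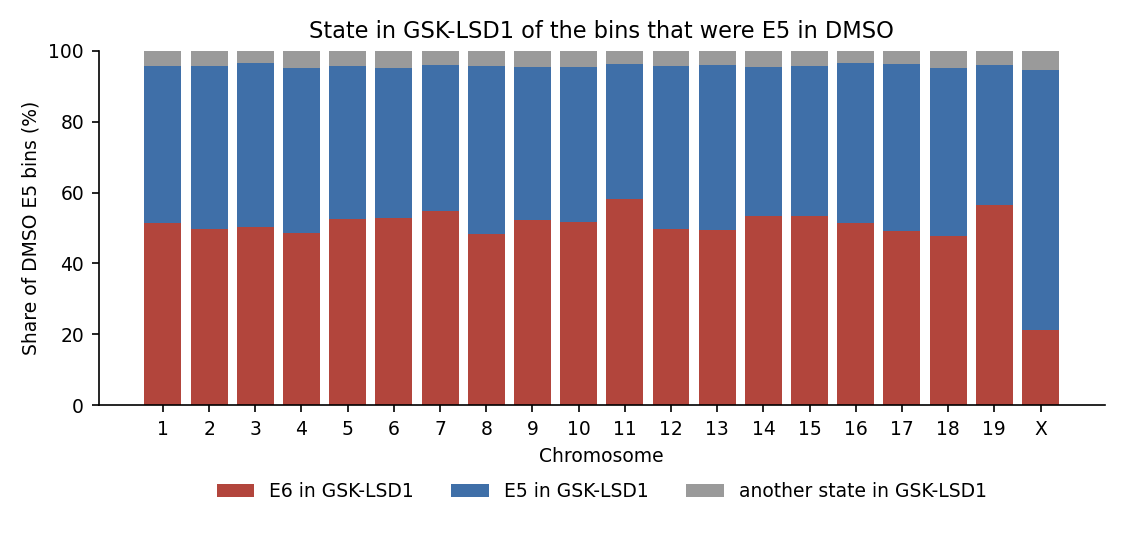
Share of the bins that were E5 in DMSO (y axis, percent) that were E6, E5 or in another state in GSK-LSD1, for each chromosome (x axis). The E6 part lies between 47.9% and 58.2% on the autosomes and at 21.1% on X.

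The regions that became E6 had a longer tail than the runs that stayed E5. Their median length was 1200 bp, with quartiles at 600 and 2200 bp, against a median of 1000 bp and quartiles at 600 and 1800 bp for kept runs. Regions of at least 4 kb numbered 1233 (7.82%), against 404 kept runs (2.34%). Regions of 1 bin numbered 1290, against 1851 kept runs. Each boundary is set to the 200 bp grid, so the difference of the medians is 1 bin.

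The longest region covered 23.4 kb of chromosome 2 (180689801 to 180713200, GRCm38) and held the starts of Dido1 and Gid8; only the last 200 bp of its E5 segment stayed E5. A region of 16.8 kb on chromosome 5 (20929001 to 20945800) lay inside Rsbn1l and held no end of a protein-coding gene. Ends of other genes were not looked up for these longest regions and runs. Of the other 6 among the 8 longest, 4 lay inside genes and held no protein-coding gene end either: 13.8 kb in Tnfaip8, 12.4 kb in Etv6 (chromosome 6, 134036601 to 134049000), 12.2 kb in Inpp5d (chromosome 1, 87621001 to 87633200) and 12.2 kb in Cers6 (chromosome 2, 68862601 to 68874800). Etv6 encodes an ETS repressor of blood stem cells and Inpp5d the phosphatase SHIP1, a brake on cytokine signalling in blood cells. The remaining 2 held starts, 12.4 kb across Ino80b, Wbp1 and Mogs on chromosome 6 and 12.2 kb at Capza2 on the same chromosome. By contrast each of the 8 longest kept runs held an end of a protein-coding gene, from 10.8 kb at Hes7 and Aloxe3 and 9.8 kb at Bahcc1 to 8.2 kb at Bcl11a and at Id2, 8 kb at Fgf9, 7.6 kb at Nr4a3 and at Ccnd2, and 7.4 kb at Ift172 and Fndc4. Among the products, HES7 is a repressor of the segmentation clock, ID2 an inhibitor of helix-loop-helix factors, BCL11A a repressor of fetal globin, FGF9 a growth factor and cyclin D2 a driver of the cell cycle.

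Seen from the E5 segments of DMSO, conversion took a few patterns. Of 24673 E5 segments, 15163 (61.5%, 60.8 to 62.1) held at least 1 bin that became E6. E6 throughout was the most frequent pattern, with 7988 segments (32.4%), and E5 throughout came next, with 6026 (24.4%). A further 3334 segments (13.5%) split into E6 on one side and E5 on the other, 1837 (7.45%) had E6 in the centre and E5 at both ends, and 168 (0.681%) had the reverse. Segments of E6 throughout had a median length of 1200 bp, segments with an E6 centre 3600 bp, and segments of E5 throughout 1600 bp.

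Position went with pattern. Regions more than 2.5 kb from every gene end, called distal here, made up 38.3% of the regions that became E6 (37.6 to 39.1; 6043 regions) and 22.5% of kept runs (21.9 to 23.2; 3897 runs). Most of the distal regions lay within a gene: 29.3% of all regions were distal and genic, against 16.8% of kept runs. The contrast depended on the limit: counted in bins, 37.7% of converted and 22.5% of kept bins were distal at 2.5 kb, and 60.4% and 52.7% at 1 kb. A gene end lay inside similar shares, 32.8% of regions and 33.3% of kept runs. What kept runs had more of was the flank of a gene end: 28.9% of regions lay within 2.5 kb without holding an end, against 44.2% of kept runs. Counted by whole segments, 14.5% of the segments that held a gene end became E6 throughout, 38.1% of those within 2.5 kb, 47.6% between 2.5 and 10 kb, 54.4% between 10 and 50 kb and 51.3% beyond 50 kb. E5 throughout ran the other way, at 29.3% of segments that held a gene end and 16.5% of those beyond 50 kb. Length moved with position, since segments at gene ends had a median of 2800 bp and those 10 kb or more away 1000 bp. Within segments of 1000 to 1600 bp, 16.5% of those with a start and 44.5% of those without became E6 throughout. This was the length class with the widest gap. The shares were 46.9% and 57.6% at 200 to 400 bp, and 15.7% and 33.3% at 4200 bp and over. Counted by bins, position made less difference: 46.0% became E6 in segments that held a gene end and 65.8% at 10 to 50 kb.

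**Figure D2:**
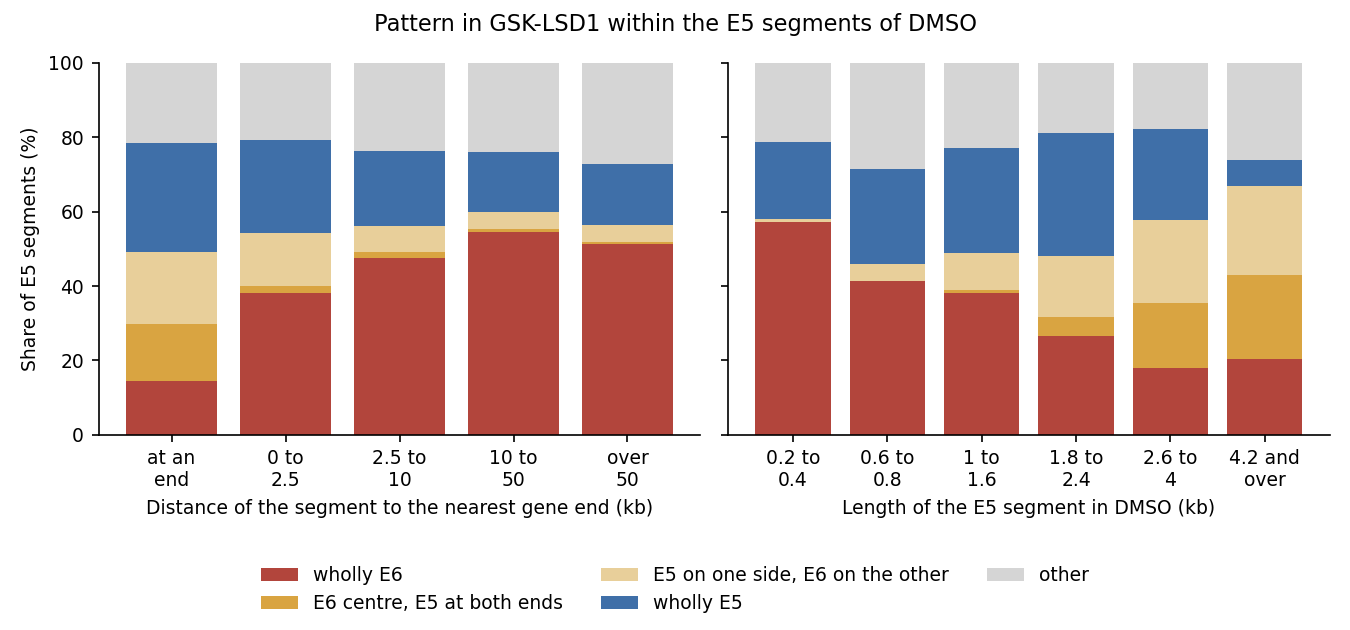
Share of the E5 segments of DMSO (y axis, percent) by their pattern in GSK-LSD1, split by distance to the nearest gene end (left) and by length (right), both in kb. Wholly E6 segments go up from 14.5% at gene ends to 54.4% at 10 to 50 kb, and go down from 57.3% of the shortest to 18.0% at 2.6 to 4 kb and 20.3% at 4.2 kb and over.

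Of the 9004 E5 segments that held a gene start, 29.4% stayed E5 throughout, 20.0% had E6 on one side and E5 on the other, 16.1% had an E6 centre and 13.4% became E6 throughout. Of the segments with an E6 centre, 78.9% held a gene start, against 15.1% of those that were E6 throughout and 43.9% of those that stayed E5 throughout. In 922 segments with an E6 centre and exactly 1 start, the start itself lay in the centre in 634 (68.8%, 65.7 to 71.7), and the centre took up a median of 44.4% of the segment. These segments were chosen by their E6 centre, so this describes them and not promoters in general. Relative to that start, the centre ran at the median from 389 bp before to 1059 bp after, inside a segment that ran from 1010.5 bp before to 2407 bp after. Around all 21045 protein-coding starts of the promoter table, E6 was found 200 bp downstream of 33.5% of starts in GSK-LSD1 and 5.66% in DMSO. Of the bins there that were E5 in DMSO, 54.7% became E6. That share was 49.6% at 200 bp upstream, 44.7% at 1600 bp downstream, where 53.5% stayed E5, and 62.0% at 5200 bp downstream. Distance from the edge of the segment was measured separately, and in the longer segments the share rose from the edge inward. In segments of 2200 to 4000 bp, 33.5% of edge bins and 47.9% of bins 800 bp from an edge became E6, with all segments of the class at both distances. In segments of 4200 to 12000 bp these were 41.2% at the edge and 71.7% at 1800 bp, again with all segments. Deeper bins come only from the longer segments of a class, so their shares mix depth with length. They were 61.9% at 1800 bp in the shorter class and 79.3% at 3000 bp in the longer one. Segments of 1200 to 2000 bp were nearly level, between 43.3% and 47.5%.

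**Figure D3:**
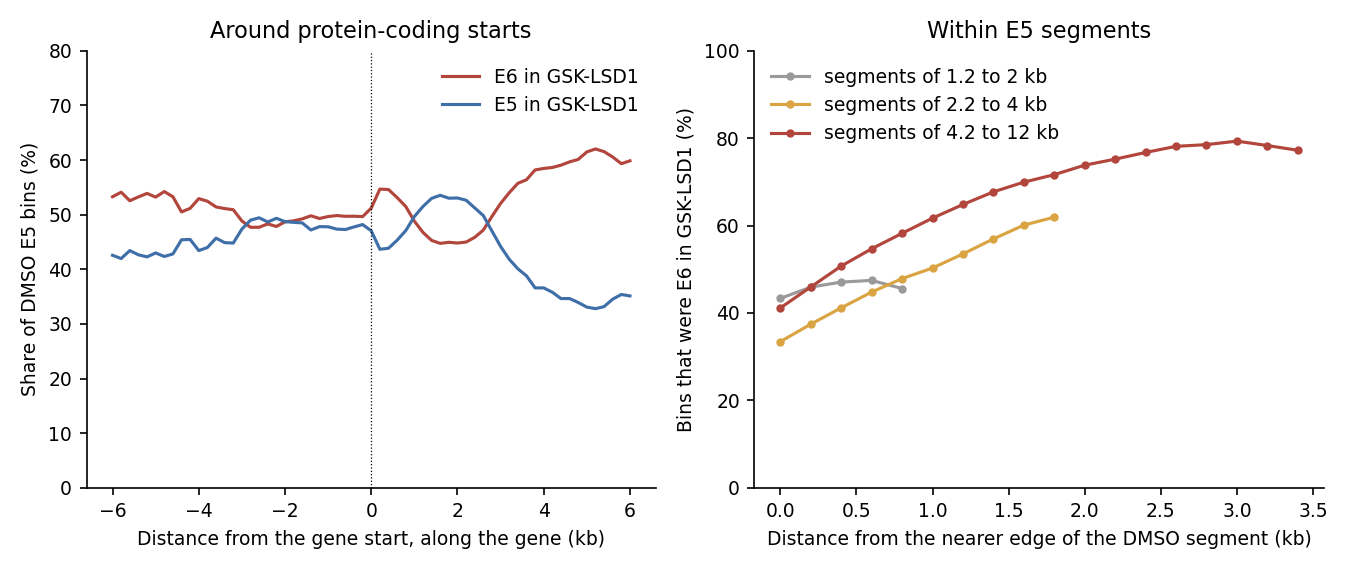
Left, share of DMSO E5 bins (percent) that were E6 or E5 in GSK-LSD1 by distance from a protein-coding start in kb, positive downstream. The E6 share has a local peak of 54.7% at 0.2 kb, a dip to 44.7% at 1.6 kb and a higher value of 62.0% at 5200 bp. Right, share of bins that became E6 (percent) by distance in kb from the nearer edge of their E5 segment, for 3 classes of segment length. The deepest bins of a class come only from its longer segments.

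The surroundings of the regions differed from those of kept runs in both segmentations. On the sides of the regions that became E6, the next bin in GSK-LSD1 was E6 in 57.8% of 31532 sides, E5 in 33.3%, E1 in 8.29% and E4 in 0.688%; in DMSO it was E4 in 51.4%, E5 in 33.4% and E6 in 14.9%. On the sides of kept runs, the next bin in GSK-LSD1 was E5 in 49.3% of 34602 sides, E6 in 28.1% and E4 in 22.2%; in DMSO it was E4 in 61.7%, E5 in 37.0% and E6 in 0.483%. E4 was the usual border of E5 in DMSO. Where the bordering bin had been E4, it became E6 in 83.1% of cases beside regions that became E6, whereas beside kept runs it became E5 in 78.8% and stayed E4 in 20.2%. Regions and runs were chosen by their state in GSK-LSD1, and adjacent bins often carry the same state, so these shares are a description only. A bordering bin that had been E5 cannot share the state of the run beside it. Of such sides, 9460 are borders between a region and a kept run and count in both groups.

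The same regions thus sat inside larger E6 runs. Of the 20207 E6 runs of GSK-LSD1, 12274 (60.7%) held bins that had been E5, with a median length of 2600 bp of which 1600 bp had been E5. Over the area of these runs, 59.6% had been E5, 22.5% E4, 10.6% E6, 3.93% E2, 3.22% E1 and 0.159% E3. Within 5 kb on either side of segments that became E6 throughout, E1 and E6 together covered on average 80.3% of bins in GSK-LSD1 and 12.8% in DMSO. Around segments that stayed E5 throughout, they covered 7.46% in GSK-LSD1 and 0.632% in DMSO.

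The neighbour in DMSO already went with the outcome. Segments bordered by E4 on both sides became E6 throughout in 25.1% of 19633 cases and stayed E5 throughout in 29.2%. With E6 on one side these were 62.8% and 2.65% of 4296 segments, and with E6 on both sides 94.7% and 0.585% of 342. With E3 on at least one side, 3.48% of 374 segments became E6 throughout and 46.5% stayed E5. The order held with and without a start: beside E6, 51.6% of segments with a start became E6 throughout, against 9.70% of segments with a start between E4 borders, and without a start these were 68.2% and 35.6%. Neighbouring E5 segments also shared their outcome. Of 2266 pairs of neighbours at most 2 kb apart that were each wholly E6 or wholly E5, 93.8% (92.7 to 94.7) were alike, and 77.2% were both E6. The share alike was 82.3% at 5 to 10 kb, 66.2% at 20 to 50 kb and 62.3% beyond 100 kb, where 15.5% of pairs were both E6. The mix of outcomes changed with the gap: 1750 pairs were both E6 and 375 both E5 at most 2 kb apart, against 163 and 493 beyond 100 kb. The share alike that this mix alone would give was not computed, so the fall with the gap also holds the change of mix. Bordering state, distance to genes and length move together, and their separate parts in the outcome were not tested.

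Near genes, conversion was about evenly split, with full conversion in the minority. Of 21631 protein-coding genes, 12572 had at least 400 bp of E5 within 2 kb of a start in DMSO. At least 50% of that E5 became E6 in 6062 of them (48.2%), all of it in 2079 (16.5%), and none of it in 4759 (37.9%). The median share was 45%. Genes with all of their E5 converted had a median length of 18.2 kb, those with a part converted 21.5 kb and those with none converted 27.3 kb. Their E5 near the start had a median of 2.8, 3.2 and 2.2 kb in DMSO.

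The 12 genes with the most converted E5 in their windows were led by Dido1. Dido1 had 12.6 kb, all of it converted, and Mgat1, an enzyme of N-glycan branching, had 9.8 kb, all converted. P2ry14, a receptor for UDP-sugars found on blood progenitors, had 8.2 kb converted of 8.2 kb, and Pik3cd, the delta catalytic subunit of PI3-kinase in leukocytes, 8 of 8 kb. Zeb2, a repressor in myeloid and lymphoid lineages, had 8 of 9.6 kb converted, and Bmf, a death-promoting BH3-only protein, 8 of 8.6 kb. Sh2d5 (8 of 8 kb), Ncoa4 (7.8 of 7.8 kb), which carries ferritin to autophagy, Psd4 (7.4 of 7.6 kb), Tgif1 (7.4 of 7.4 kb), a repressor of TGF-beta targets, Zbtb7b (7.4 of 7.4 kb), the ThPOK factor of CD4 T cells, and Acap1 (7.2 of 7.2 kb) completed the 12. A window of 2 kb either side of 1 start is too short to hold the converted E5 of any of these 12 genes. Sh2d5 and Acap1 have no entry in the promoter table, so their windows lie at both gene ends. The others have windows at more than 1 start, so the ranking favours genes whose windows cover more sequence. The genes with the most kept E5 were led by Car7, a carbonic anhydrase, with 8.2 kb kept of 8.2 kb, and Nrn1, a neuronal growth factor, with 7.6 of 7.6 kb. Ccr10 and Sgk1 kept 6.2 of 6.2 kb each. Nrn1, Ccr10, Gpatch4 and Pcbp4 likewise had windows at both gene ends, and the other genes with the most kept E5 had windows at more than 1 start. Ptpn21, Trim2, Nol4l, Abhd4, Sertad2, Gpatch4, Nsun6 and Pcbp4 kept between 5.4 and 6 kb each, and of these Nol4l, Sertad2 and Gpatch4 had 1.2, 1.4 and 0.4 kb converted.

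Genes of the LSD1 complex and its repressor partners were at least 50% converted in 10 of 15 cases (median 70.6%), with an interval of 41.7 to 84.8% that includes the 48.2% of all genes. A region of 4.2 kb on chromosome 5 (107722801 to 107727000) was E6 throughout in GSK-LSD1 and held both starts of Gfi1 in the promoter table. The start of Gfi1b lay in a region of 5.6 kb (chromosome 2, 28617001 to 28622600), also E6 throughout. Hmg20b, a CoREST-complex subunit, had 3.6 of 3.6 kb converted. The promoters of Gfi1 and Gfi1b shown above were thus wholly inside converted chromatin. Kdm1a itself, the target of the inhibitor, had a part of the E5 near its start converted. There 0.8 kb (chromosome 4, 136602001 to 136602800) became E6 and 1.4 kb within the window stayed E5. The rest of the gene was not looked up. Its homologue Kdm1b kept 3 of 3 kb, and Zmym3, a partner protein encoded on X, kept 2.4 of 2.4 kb. Among the 17 enzymes and subunits of H3K4 methylation, 13 were at least 50% converted (76.5%, 52.7 to 90.4), against 48.2% of all genes. None was wholly without converted E5, against 37.9% of all genes. Their median of 76.2% depended on the window, at 90.5% with 1 kb and 53.3% with 5 kb. Wdr5, a core subunit of the methyltransferase complexes, had 3.2 of 3.2 kb converted and Dpy30 2.8 of 3 kb, and Cxxc1, which brings such a complex to CpG islands, had 1 of 3.2 kb.

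Genes of JAK/STAT signalling, a pathway that mutant CSF3R feeds, were more often converted than not. The list also holds genes of other cytokine receptors. Of 19 JAK/STAT genes with E5, 15 were at least 50% converted (78.9%, 56.7 to 91.5), against 48.2% of all genes, and the median was 100%, against 45%. Stat5b, Stat5a and Stat3 lie side by side on chromosome 11 (100780731 to 100939594), and the interval counts such neighbours as separate genes. The kinase gene Jak2 had 4.2 of 4.2 kb converted and Stat5b, which carries the signal to the nucleus, 6 of 6 kb. A region of 8.4 kb inside Stat3 (chromosome 11, 100930401 to 100938800) was E6 throughout, with 1.4 kb of it within the window. It stopped short of the 5′ end of the gene. Socs3, the feedback inhibitor of this receptor, had a region of 1.6 kb (chromosome 11, 117969201 to 117970800), also E6 throughout. At the low end Jak1 had 1.2 of 3 kb converted, and Il6ra, a chain of the interleukin-6 receptor, kept 2 of 2 kb. Csf3r had no E5 within 2 kb of its start in DMSO and was not among the genes counted.

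Granulocyte genes could be followed only in small numbers, because 16 of 20 maturation genes had less than 400 bp of E5 near the start in DMSO. Itgam was among them and had none. The other 4 were all at least 50% converted (interval 51.0 to 100%), against 48.2% of all genes. Wholly converted were Cebpe, a factor of late granulocytes, at 1.2 of 1.2 kb, Mmp8, neutrophil collagenase, at 1 of 1 kb, and Padi4 at 0.4 of 0.4 kb. Itgb2, the beta chain of leukocyte integrins, had 2.4 of 2.8 kb converted. With a window of 5 kb the median of this list was 58.4%, over 6 genes. All 6 genes of azurophil granules with at least 400 bp of E5 reached 50% (interval 61.0 to 100%). They ran from Prtn3, proteinase 3, at 3.2 of 3.2 kb and Ctsc, its activating protease, at 3.6 of 3.6 kb to Nkg7, just at the limit with 1 of 2 kb. Monocyte and macrophage genes ran lower, with 2 of 10 at 50% or more (20%, 5.67 to 51.0, an interval that includes 48.2%) and a median of 0. Fcgr1, the high-affinity IgG receptor, had 2.4 of 2.4 kb converted and Cd300a 1.2 of 1.2 kb, whereas Klf4, a factor of monocyte fate, kept 3.2 of 3.2 kb and Tlr2, a receptor for bacterial lipoproteins, 3 of 3 kb.

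Transcription factors of the myeloid lineage all had E5 near the start. Of 20, 12 were at least 50% converted (60%, 38.7 to 78.1, an interval that includes the 48.2% of all genes), 8 wholly, against 16.5% of all genes, and 6 not at all, against 37.9%. Runx1, a master factor of blood formation, had 5.8 of 5.8 kb converted and Etv6 2 of 2 kb. Spi1, which encodes PU.1, had 0.8 of 0.8 kb converted, in a region inside the gene that held neither of its ends (chromosome 2, 91083401 to 91084200). The immediate-early genes Egr2 and Fos kept 4.2 of 4.2 kb and 3.8 of 3.8 kb, and Cebpa kept 3.2 of 3.2 kb, in 2 runs of which one held its start (chromosome 7, 35118001 to 35120800). Of progenitor and leukaemia genes, 8 of 17 were at least 50% converted (47.1%, 26.2 to 69.0), near the 48.2% of all genes. Their median was lower, at 12.5% against 45%, with an interval of 0 to 83.3% that includes 45%. None of the E5 was converted in 7 of them, against 37.9% of all genes. Cd34, a surface protein of blood progenitors, had 1.8 of 1.8 kb converted, while Mllt3, a fusion partner of MLL, kept 4.2 of 4.2 kb, and Bcl2, the survival factor, had 0 of 3.6 kb converted.

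Lists of genes that most cells use lay above the share of all genes. At least 50% of E5 was converted in 24 of 26 spliceosome genes (92.3%, 75.9 to 97.9), 21 of 27 genes of DNA replication and the cell cycle (77.8%, 59.2 to 89.4), 20 of 26 ribosomal protein genes (76.9%, 57.9 to 89.0), 20 of 26 genes of oxidative phosphorylation (76.9%, with the same interval) and 17 of 26 proteasome genes (65.4%, 46.2 to 80.6). Of these 5 intervals, that of the proteasome alone includes the 48.2% of all genes. Members with all of their E5 converted were Snrpa and Ddx46 of the spliceosome, Plk1 and Top2a of the cell cycle, Rpl18 of the ribosome, Cox7a2 and Atp5c1 of the respiratory chain and Psma6 and Psmc6 of the proteasome, with between 2.6 and 4.2 kb each. At the low end Sf3a1 had 1 of 3.8 kb converted, Rpl8 1.2 of 4.2 kb and Rpl3 0.4 of 2 kb. Ddx23, Pole, Ndufs3, Psma4 and Psmb3 had none of 3.2, 4, 4.2, 3.6 and 4.2 kb converted, and neither had Pola1 and Ndufa1, both encoded on X, with 2.4 and 3.2 kb.

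Interferon-response genes were at least 50% converted in 5 of 14 (35.7%, 16.3 to 61.2) and antigen-presentation genes in 5 of 11 (45.5%, 21.3 to 72.0), intervals that include the 48.2% of all genes. Of those 5 antigen-presentation genes, the 4 wholly converted ones, Psmb9, Tap1, Psmb8 and Tap2, lie close together on chromosome 17 (34182030 to 34216321). The count and its interval treat these neighbours as separate genes. Irf9, which binds DNA for the type I interferon signal, had 4.4 of 4.4 kb converted and Bst2 3.8 of 3.8 kb, while the sensor Ifih1 kept 2.6 of 2.6 kb and Usp18, which limits the response, 3.2 of 3.2 kb. The median of the antigen-presentation genes was 40% and depended on the window, at 85.7% with 1 kb. Psmb9 and Tap1 share 1 window of 4.2 kb between their starts, all converted, and Nlrc5, the activator of class I genes, kept 2.8 of 2.8 kb. H2-Ab1 had 0 of 2.4 kb converted. Markers of other lineages had E5 near their starts as well, and a state label does not measure expression. Of 17 B and T lymphocyte genes 8 had at least 400 bp of E5 and 4 were at least 50% converted. Rag1 had 2.8 of 2.8 kb converted and Tcf7 1.4 of 1.4 kb, and Gata3 and Cd4 had 0 of 3.4 and 0 of 2 kb. Erythroid and megakaryocyte genes had 5 of 10 converted (Tfrc 3 of 3 kb, Itga2b 1.4 of 1.4 kb, Epor 0 of 2.2 kb). Mast cell, basophil and eosinophil genes had 4 of 4 (Fcer1a 2 of 2.4 kb, Gata2 3.4 of 4.2 kb). Stroma and endothelium genes had 2 of 7 (Pecam1 4.2 of 4.2 kb, Pdgfrb 1.4 of 1.4 kb, Col1a1 and Kdr 0 of 1 kb each).

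**Figure D4:**
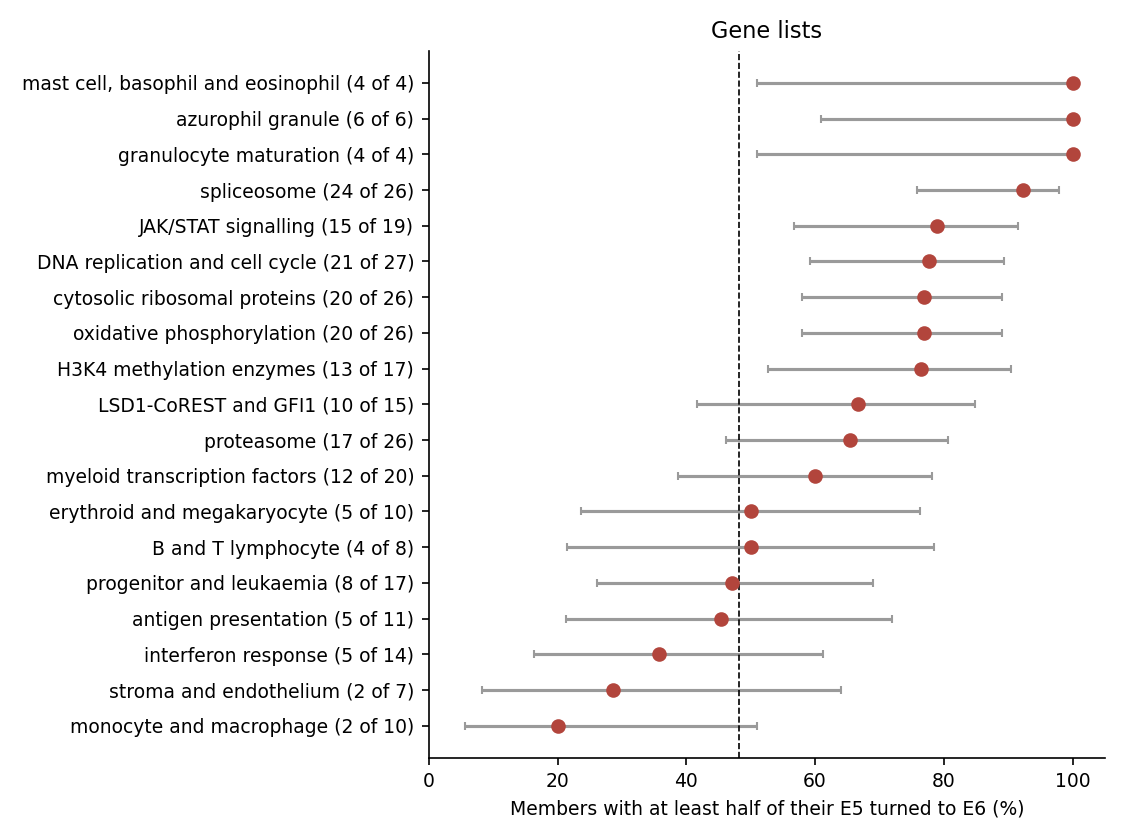
Share of the members of each gene list (x axis, percent) with at least 50% of their E5 near the start turned to E6, with 95% Wilson intervals for counting error; the counts stand beside the names. The dashed line is the 48.2% of all 12572 genes, with the spliceosome at 92.3% and monocyte and macrophage genes at 20% on either side of it.

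The sequence at the start, which did not enter the choice of regions, differed between converted and kept starts, with no test, since starts are not replicates. Of 32619 starts in the promoter table, 12167 were E5 in DMSO; 6149 of these were E6 in GSK-LSD1 (50.5%) and 5774 stayed E5. The observed-to-expected ratio of CpG in the 300 bases had a median of 0.805 at converted starts, 0.748 at kept starts and 0.387 over all promoters. GC content was close, with medians of 61.3% at converted, 62.3% at kept and 53% at all starts. With E5 starts split into 5 equal groups by the CpG ratio, from the lowest to the highest, 46.0%, 43.6%, 48.3%, 53.6% and 61.2% of E5 starts became E6. A start on the opposite strand within 1 kb, in head-to-head orientation, was present at 25.7% of converted starts (24.7 to 26.8), 18.5% of kept starts (17.5 to 19.5) and 11.4% of all. Head-to-head starts share sequence and chromatin, so starts are not independent of each other.

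Of 17 motifs searched on both strands, the ETS core CGGAAG set converted and kept starts furthest apart in percentage points. It was in 38.7% of converted promoters (37.5 to 39.9), 24.3% of kept promoters (23.2 to 25.4) and 17.0% of all 32619. The more matches, the larger the share that became E6: 45.2% of E5 starts with no match, 59.0% with 1, 68.2% with 2 and 76.7% (71.2 to 81.4) of 262 with 3 or more. Psma6 and Rps18, with 4 matches each in the sequences above, became E6, and Snrpe stayed E5 with 4 matches, of which 2 overlap on opposite strands. The core holds a CpG, and within the same 5 groups it was in 16.0%, 35.0%, 45.2%, 45.7% and 47.2% of converted promoters, against 13.9%, 22.9%, 26.2%, 29.0% and 31.8% of kept ones, with intervals that overlap in the lowest group. A match is a description of the letters and shows no binding.

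The other motifs differed by fewer percentage points, though rarer ones could differ by a larger ratio. The cyclic AMP element core TGACG was in 35.3% of converted promoters, 28.7% of kept and 20.9% of all. It too holds a CpG, and within the 5 groups of the CpG ratio it was in 15.4%, 29.5%, 36.3%, 40.9% and 48.6% of converted promoters, against 17.4%, 26.2%, 28.7%, 36.0% and 38.6% of kept ones, with intervals that overlap in 3 of the 5 groups. The YY1 motif AAGATGG was in 8.25%, 5.49% and 6.37%, and the PU.1 motif GAGGAAGT in 3.82%, 2.18% and 3.22%, in the same order. A CG-rich palindrome of 10 bases was in 92 of 6149 converted, 28 of 5774 kept and 153 of all 32619 promoters. The GFI1 core AAATCA was in 7.56% of converted, 7.27% of kept and 14.0% of all promoters, and the intervals of converted and kept overlapped. The same was so for TATAAA (5.92%, 5.96% and 13.7%) and for the C/EBP-like TTGCNNAA (8.13%, 7.59% and 10.9%). The GC box GGGCGG was in 65.7%, 68.0% and 35.9%, and there too the intervals of converted and kept met. The remaining 8 motifs differed between converted and kept starts by less than 2 percentage points each. They were CCAAT, the NRF1 palindrome, the E-box CACGTG, the AP-1 motif TGANTCA, the RUNX core TGTGGT, the GATA core AGATAA, the IRF motif and the STAT motif TTCNNNGAA, where N is any base. None of the other motifs contains CGGAAG.

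**Figure D5:**
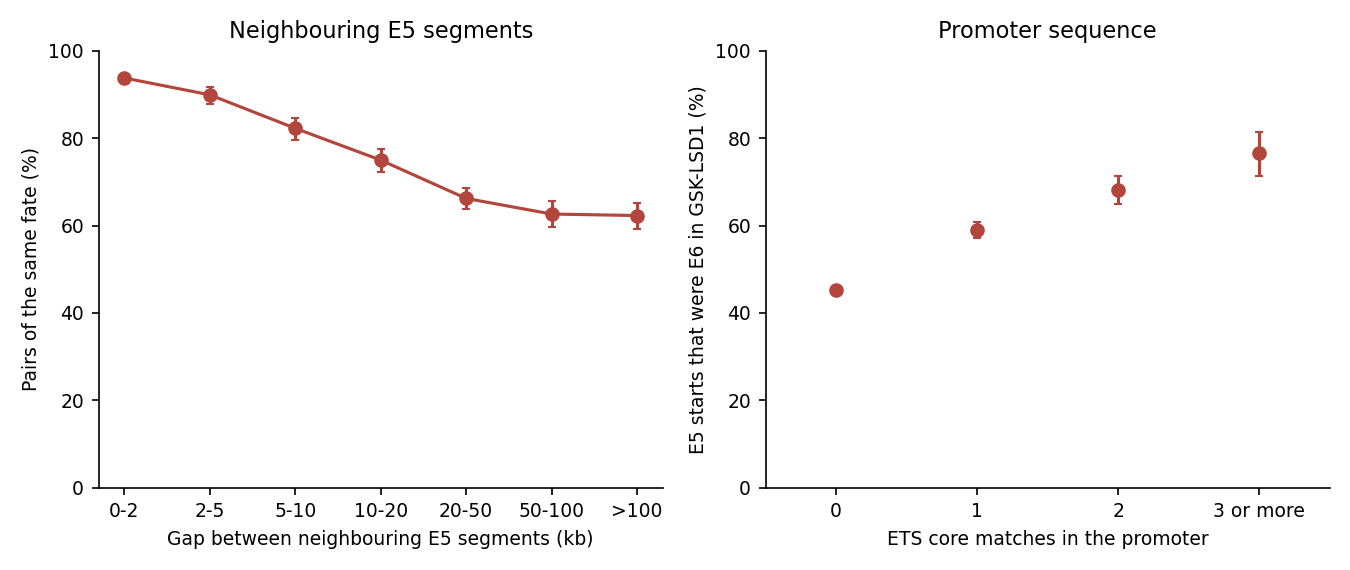
Left, share of neighbouring E5 segments with the same outcome (y axis, percent) by the gap between them in kb, from 93.8% at most 2 kb apart to 62.3% beyond 100 kb. The mix of outcomes in the pairs also changes with the gap. Right, share of E5 starts that became E6 (y axis, percent) by the number of ETS core matches in the promoter, from 45.2% to 76.7%; bars are 95% Wilson intervals for counting error.

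MicroRNA genes were few among the regions. Of 1005 hairpins in the RefSeq table, 141 lay in E5 in DMSO, of which 61 were E6 in GSK-LSD1 (43.3%, 35.4 to 51.5) and 75 stayed E5. That interval includes the 51.3% of all E5 bins. Mir191 and Mir425, which lie side by side on chromosome 9, and Mir210, the hypoxia-induced microRNA, were in converted chromatin. Mir15b and Mir16-2, and Mir17, Mir19a, Mir20a, Mir19b-1 and Mir92-1 of the cluster on chromosome 14, were in kept E5. These microRNAs were named after their values were seen, and hairpins of a cluster share their chromatin.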

How the data were processed

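Per the labels' protocols, ChIP was done with a SimpleChIP kit and libraries were made for Illumina sequencing. The submitters' processing notes name the read aligner Bowtie and the build GRCm38 (mm10). The authors deposited, for each treatment, 1 list of segments with a state label from E1 to E6. These labels are not counts, so no count model could be used and the depth is unknown. Not given in the sources used here are the segmentation tool, its thresholds, the use of the input and the marks behind each label. A label depends on whether signal passed a threshold, so a small change of signal near it can move the label.

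The deposited segments were expanded to 200 bp bins with Python 3.11.15, NumPy 2.4.6 and pandas 2.3.3, and figures were drawn with Matplotlib 3.10.9. Gene positions and promoters came from RefSeq tables of GRCm38.p6: 49554 genes of any type for distances, 21631 protein-coding genes for windows. A window reached 2 kb either side of each start, or of both gene ends for genes with no entry in the promoter table (17274 had one), and a gene needed 400 bp of E5 in DMSO. Medians and shares have no p-value, because bins, starts, genes and chromosomes are not replicates. Intervals of shares are 95% Wilson intervals, and intervals of medians are distribution-free 95% intervals from the binomial distribution. The members, the 19 gene lists (355 of 355 genes matched) and the motifs were chosen with earlier results of these data known. The text names, per list, the 2 genes with the highest and the 2 with the lowest converted share among those with at least 1000 bp of E5, ties by larger area; the 12 genes with the largest converted and kept area; the 8 longest regions and runs; and Cebpa, Csf3r, Kdm1a, Gfi1, Gfi1b, Cebpe, Itgam, Spi1, Stat3 and Socs3. Genes outside this rule were named after their values were seen. A few genes within the rule are not reported here. The calculations were tested on simulated segmentations. Alternatives covered sequences, boundaries, short segments, merging, distance limits, windows and gene sets.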

Additional observations from a re-analysis of the deposited data

How the results depend on the processing

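Of 91 alternative values, 53 stayed within the interval of the value reported (counts within 1.5 times) and 38 moved; no difference between converted and kept changed sign where both were recomputed. For 6 list medians the interval runs from 0 to 100%, so their 12 alternatives could not leave it and say nothing about stability; among them, with a 1 kb window, antigen presentation was at 85.7% in place of 40% and B and T lymphocyte at 50% in place of 31.2%. Shares near 50% crossed it: converted genes with a 1 kb window and E5 starts by the most frequent state. The share of E5 bins that became E6 was 51.9% on autosomes only and 54.7% without bins at state boundaries. The median kept run was 1200 bp with runs at most 400 bp apart joined, and 1200 bp without runs under 400 bp. With 90% of bins in place of all, 34.6% of segments were E6 and 26.4% E5; without segments under 600 bp, 29.5% were E6 throughout and 8.31% had an E6 centre. The distal share of converted and kept bins was 60.4% and 52.7% at a limit of 1 kb, 24.3% and 11.7% at 5 kb, 44.3% and 29.0% with protein-coding genes only, and 35.8% and 20.4% without boundary bins; without segments under 600 bp it was 37.2% of converted bins. Counted as bins within 1 kb, E6 beside converted regions made up 48.1% in GSK-LSD1 and 12.5% in DMSO, and beside kept runs 27.2% in GSK-LSD1 and 1.10% in DMSO. By the most frequent state within 500 bp, 49.3% of E5 starts became E6. Genes at least 50% converted made up 52.3% with a window of 1 kb, 43.9% with 5 kb and 49.1% with at least 1000 bp of E5; a stricter and a looser limit on the converted share gave 37.3% and 55.8%. List medians moved with a 1 kb window to 90.5% for H3K4 methylation enzymes, 92.3% for ribosomal proteins and 89.2% for oxidative phosphorylation, and with a 5 kb window to 58.4% for granulocyte maturation, 53.3% for H3K4 methylation enzymes and 65.2% for the spliceosome. At starts with no other start within 5 kb, the CpG ratio was 0.787 at converted and 0.738 at kept starts, and GC was 60.7% at converted starts. There, in an alternative chosen after seeing the data, CGGAAG was in 37.4% of converted promoters. With segments of 200 bp filled in, also chosen after seeing the data, 24.0% of segments between E4 borders became E6 throughout. The causes were not tested. No paired analysis was possible because each treatment has 1 segmentation and no replicate. Depth is unknown, and the 2 segmentations hold no measure of the spread between cultures.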
